A study of Mus musculus with 12 samples.

Results

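The inner root sheath and companion layer keratins were followed in an Agilent DNA microarray experiment on whole back skin of male C57BL/6J mice, 8 weeks old. A set of 9 genes was asked for by name, namely Krt25, Krt26, Krt27, Krt28, Krt71, Krt72, Krt73, Krt74 and Krt75, and a probe was taken when its gene name on the array was one of these. Of these 9, 6 had a probe, 1 each, among 27373 gene names and 41174 distinct probes. Krt72, Krt73 and Krt74 were found neither by name nor by accession or older symbol, and they were not analysed here. The shaved back received 200 µL daily of 3% minoxidil (MXD), of 10% Notocactus ottonis cell extract (N-CE), or of vehicle alone (VC, propylene glycol, ethanol and water as 5:3:2), beginning 1 day after shaving. Skin was taken after 1 week (1W), 2 weeks (2W) and 3 weeks (3W). The RNA of all 6 mice of a group and week went into 1 pool, which gave 9 pools. Each of the 6 treated pools was hybridized together with VC RNA of the same week, once labelled with Cy5 and once with Cy3. Each group is thus 1 pool with no biological replicate, and errors below, unless named otherwise, are the SD between both arrays of such a dye swap, which describes the measurement and not the mice. The 4 arrays of a week shared a slide and a VC pool, so that slide and week cannot be told apart, and the MXD and N-CE values of a week share their control.

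The inner root sheath is the sleeve of keratinocytes that surrounds the growing hair shaft and moulds it. It is made anew with each growth phase (anagen) of the follicle and is lost again when growth ends. Its filaments are built from pairs of a type I and a type II keratin. Krt25, Krt27 and Krt28 (type I) and Krt71 (type II) are made in every layer of the sheath, that is the Henle layer, the Huxley layer and the cuticle. Krt26 (type I), Krt72 and Krt73 (type II) belong to its cuticle. RefSeq lists Krt74 of the mouse as a transcribed pseudogene. Krt75 (type II) is the keratin of the companion layer, the single sheet of cells between the inner and the outer root sheath. Krt71 is the gene behind the curly coat of Caracul mice.

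The probes are shown because every value below rests on a single 60-base oligonucleotide per gene. All lie on the minus strand of mm9, the type I genes within 1 cluster on chromosome 11 and the type II genes on chromosome 15. The probe of Krt25 maps to chr11:99177867-99178575 and that of Krt27 to chr11:99207158-99207828, spans of 709 and 671 bases, so both are broken up in the genome. The probes of Krt26 (chr11:99190372-99190431), Krt28 (chr11:99226220-99226279), Krt71 (chr15:101564426-101564485) and Krt75 (chr15:101394841-101394900) each lie in 1 unbroken stretch. Between any 2 of the 6 probes, the longest shared stretch was 9 bases, and 0 other probes of the array shared a stretch of 20 bases with one of them. The first 30 bases of each, 5′ to 3′ as printed on the array, read:
Krt25: cctcctcataggaggagatgaaggggcctg
Krt26: gatagattaatggaggtgtggttcagacaa
Krt27: gccaaggaagacccggaaatcagacaaaag
Krt28: cagatgaggaaccttagacaaaatacctgt
Krt71: tcttcactttcttgaacccagaaccaggga
Krt75: taccagctagagtcaaagctcctctgtttc

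All 144 channel readings of these probes (6 probes, 2 channels, 12 arrays) were well above background and 0 were saturated, against 57% to 69.6% of the 43379 transcript spots well above background in a channel. A single one of their spots was marked as an outlier by the scanner software. It was that of Krt26 on the MXD 2W array with MXD in Cy3. Unless stated, this spot was left out of the log2 folds. As for the tissue, 8 of 8 outer root sheath and epidermal keratins with a probe, among them Krt5 and Krt14 of the basal layer, were above background in every comparison. A gene counted as up- or down-regulated, or called, if its mean fold was above 1.5 or below 0.75, with both arrays on the same side of VC and each with a P of the scanner software under 0.01.

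In N-CE at 1W, all 6 keratins were down-regulated, by 3.29-fold to 7.29-fold. The processed signal of Krt71 was 24779 in N-CE against 169953 in VC with N-CE in Cy5, and 18129 against 131042 with the dyes exchanged. Krt25 read 6906 against 40914 and 5776 against 42443 in the same order. Krt26, the type I keratin of the sheath cuticle, read 203 against 1429 and 156 against 1181. In each of these pairs the N-CE reading lay far below the VC reading, whichever dye it carried. The log2 fold was −2.72 ± 0.22 for Krt25, −2.87 ± 0.07 for Krt26, −2.80 ± 0.45 for Krt27, −2.69 ± 0.25 for Krt28 and −2.82 ± 0.05 for Krt71 (SD, n = 2 arrays). These 5 sheath keratins thus spanned 0.17, less than the SD of Krt25, Krt27 or Krt28. This narrow span depended on the processing. With normexp and loess Krt26, the dimmest of them, had −2.27, where the other sheath keratins had −2.66 (Krt28) to −2.77 (Krt27) and Krt75 had −1.70. Krt75 of the companion layer read 12280 against 39791 and 11245 against 37576, and its log2 fold was −1.72 ± 0.03. The median over the 6 keratins was −2.76 ± 0.24, where that of all 27685 probes tested was 0.02. By the same criterion 2.21% of all probes were called down-regulated and 0.433% up-regulated. In a pool of whole skin, fewer sheath cells and less of each RNA per cell cannot be told apart.

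In MXD at 2W, the same genes lay above VC. Krt71 read 244300 in MXD against 76562 in VC with MXD in Cy5, and 230394 against 133844 with MXD in Cy3. Krt75 read 186781 against 74338 and 163807 against 73667, and Krt25 read 124773 against 41889 and 119245 against 49375. All MXD readings of these 3 genes were thus higher than all VC readings of that gene on the same arrays. The log2 fold was 1.42 ± 0.21 for Krt25, 1.08 ± 0.38 for Krt27, 1.15 ± 0.11 for Krt28, 1.23 ± 0.63 for Krt71 and 1.24 ± 0.12 for Krt75 (SD, n = 2 arrays), and these 5 were called up-regulated. The spread of Krt71 was wide, with 1.67 on one array and 0.78 on the other. Krt26 had 1.49 on its single unmarked array and was therefore not called. With its marked spot included, it had 1.40 ± 0.13 and passed on both arrays. The median of the 6 was 1.24 ± 0.19 against 0.05 for all 28687 probes, and 5.79% of all probes were called up-regulated and 8.36% down-regulated, the largest shares among the 6 comparisons.

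In the other 4 comparisons, 0 of the 6 keratins were called. At MXD 1W all 6 lay above VC on both arrays, with log2 folds from 0.34 ± 0.01 (Krt75) to 0.58 ± 0.06 (Krt28), a median of 0.44 ± 0.03. Krt28 was nearest to a call, at 1.49-fold with a P of 0.0105 on one array and 0.00332 on the other. Probes called there made up 0.994% (up) and 1.11% (down). At N-CE 2W all 6 means were again above 0, between 0.30 and 0.41, with a median of 0.32 ± 0.14, but Krt71 had 0.77 on one array and −0.09 on the other. The background of calls was 0.0983% (up) and 0.0738% (down). At 3W the keratins lay near VC in both treatments, from −0.18 (Krt26) to 0.11 (Krt25) in MXD and from −0.23 (Krt27) to 0.10 (Krt25) in N-CE. The medians were −0.08 ± 0.02 and −0.06 ± 0.10, and the shares of all probes called were 0.226% (up) and 0.252% (down) in MXD, and 0.217% (up) and 0.2% (down) in N-CE.

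**Figure D1:**
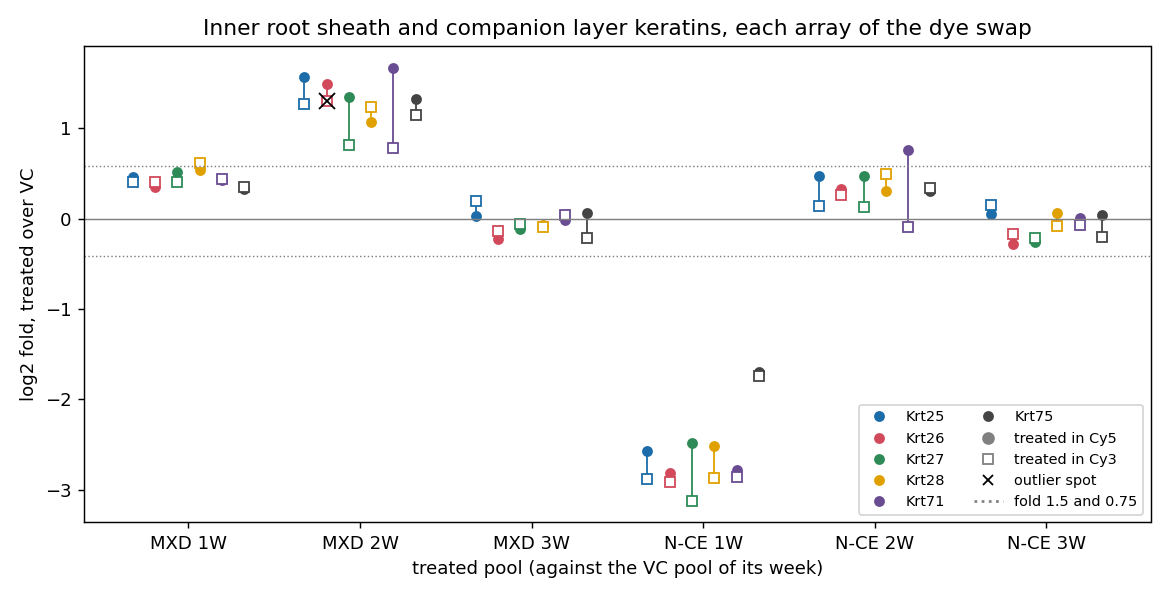
Log2 fold of treated skin over VC for each of the 6 keratins (y axis) in the 6 comparisons (x axis). Filled circles are arrays with the treated pool in Cy5, open squares those with it in Cy3, the line joins both arrays, the cross marks the outlier spot and dotted lines are the folds 1.5 and 0.75. At N-CE 1W every point lies at −1.70 or below, with Krt75 above the other 5, and at MXD 2W every point lies at 0.78 or above.

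Krt75 stood apart from the sheath keratins in N-CE at 1W. Its log2 fold exceeded the mean of the 5 sheath keratins by 0.93 on one array and by 1.19 on the other (mean 1.06 ± 0.18), and it was the least reduced of the 6 on both arrays. In the other comparisons this difference was −0.12 ± 0.01 (MXD 1W), −0.02 ± 0.12 (MXD 2W), −0.03 ± 0.25 (MXD 3W), −0.01 ± 0.22 (N-CE 2W) and −0.0014 ± 0.18 (N-CE 3W). The value at MXD 2W includes the marked spot of Krt26. With 1 pool per group, the difference between Krt75 and the sheath keratins could not be tested across mice. Krt6a, Krt6b, Krt16 and Krt17 share the companion layer with Krt75 and are also keratins of the outer root sheath. Of these, 0 of 4 were called in N-CE at 1W, and the median was −0.52 ± 0.26. Krt17 had −0.60 ± 0.11, Krt6a −0.53 ± 0.33 and Krt16 0.19 ± 0.18 there.

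In MXD at 1W Krt16, the type I keratin of activated keratinocytes, was up-regulated with a log2 fold of 2.78 ± 0.20, and Krt6b, its type II partner, with 1.81 ± 0.31, where Krt75 had 0.34 ± 0.01. At 2W, 3 of 4 were up-regulated, Krt6b with 1.15 ± 0.04, Krt17 with 0.94 ± 0.46 and Krt16 with 0.81 ± 0.07. At 3W 0 of 4 were called, and Krt16 had a log2 fold of −0.54. In N-CE, 0 of 4 were called at 2W and 3W as well. Krt6a and Krt6b are close copies of each other, so that their separate values are uncertain.

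The level of each probe was next compared over the 9 pools, from the intensity of a single channel after loess and quantile normalization (log2 intensity, 2 readings per treated pool and 4 per VC pool). These levels include the marked spot of Krt26, and values without it are given beside them. For all 6 keratins, the N-CE 1W pool was the lowest of the 9. The MXD 2W pool had the highest mean for 5 of them. For Krt26 it read 12.96 with the marked spot and 12.76 without it, where N-CE had 12.88 at both 2W and 3W. The highest N-CE 1W reading lay below the lowest reading of any other pool by 0.84 (Krt71) to 2.21 (Krt28). Between these ends the order was less clear, and of the 8 pairs of neighbours in the order, 3 (Krt75) to 7 (Krt71) had overlapping readings. The top place of MXD 2W was separate from the next pool for Krt25 (15.78 against 15.19 in MXD 1W), for Krt27 (15.38 against 14.91 in N-CE 2W), for Krt28 (15.73 against 15.53 in N-CE 2W) and for Krt75 (16.12 against 15.64 in VC 3W), but not for Krt26 and Krt71.

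The level in VC itself differed between weeks for some of the genes. From 1W to 3W the VC levels of Krt26 were 10.00, 12.09 (12.16 without the marked spot) and 12.55, and those of Krt75 were 14.46, 15.04 and 15.64. The 4 VC readings of 1W and those of 3W did not overlap for Krt26, Krt28 and Krt75. They overlapped for Krt25, Krt27 and Krt71, whose VC means at 1W and 3W differed by 0.13 or less. In the N-CE pools, the levels at 2W were higher than at 1W by 2.55 (Krt71) to 5.16 (Krt26), and 2W and 3W then differed by 0.45 or less. In the MXD pools, 2W exceeded 1W by 0.32 (Krt71) to 2.60 (Krt26), and 3W minus 2W was −0.59 (Krt71) to −1.13 (Krt26). Without the marked spot, Krt26 had 2.39 and −0.92 for these steps. As a measure of the error between arrays, the same VC RNA was read on the MXD arrays and on the N-CE arrays. The levels differed by up to −0.71 at 1W (Krt71). They differed by up to −0.98 at 2W (−1.27 without the marked spot) and −1.10 at 3W, both for Krt26. These changes across weeks lie between slides and were not tested.

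**Figure D2:**
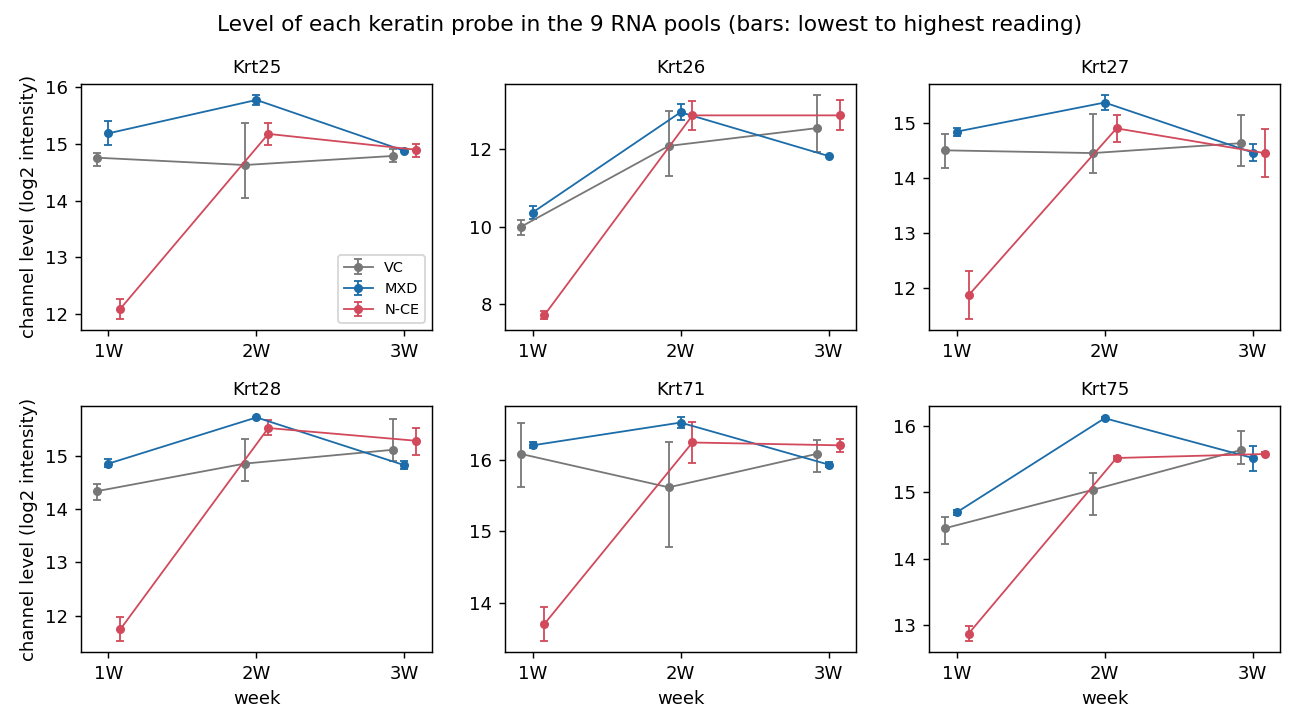
Channel level of each keratin probe (y axis, log2 intensity) in the VC, MXD and N-CE pools at 1W, 2W and 3W (x axis). Points are means over 4 (VC) or 2 (MXD, N-CE) readings and bars run from the lowest to the highest reading, with the marked spot of Krt26 at 2W included. The N-CE 1W pool is the lowest in every panel, and the VC means of Krt26 and Krt75 are lowest at 1W and highest at 3W.

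MXD and N-CE were compared within each week, as the difference of their log2 folds against the VC pool they share. Errors of these differences are the root of the summed squared SDs of both dye swaps. For Krt26 at 2W, the SD of MXD includes the marked spot, while the log2 fold does not. At 1W, MXD exceeded N-CE for 6 of 6 keratins, by 2.06 ± 0.03 (Krt75) to 3.27 ± 0.26 (Krt28), with a median of 3.25. At 2W, MXD exceeded N-CE for 6 of 6 again, by 0.75 ± 0.18 (Krt28) to 1.20 ± 0.14 (Krt26, from 1 MXD array), with a median of 0.90. At 3W, the differences lay between −0.07 and 0.15 with a median of 0.03. The median of all probes was −0.04, 0.04 and 0.01 in these weeks. When the MXD and N-CE channels were set against each other without VC, the medians were 2.81, 0.38 and −0.17. At 2W the differences were then 0.60 for Krt25 and, for Krt26, 0.08 with its marked spot and −0.12 without it, which left the median at 0.38. The VC readings of that week were lower on the MXD arrays than on the N-CE arrays for all 6 probes, with log2 differences from −0.33 to −0.98, or to −1.27 without the marked spot.

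**Figure D3:**
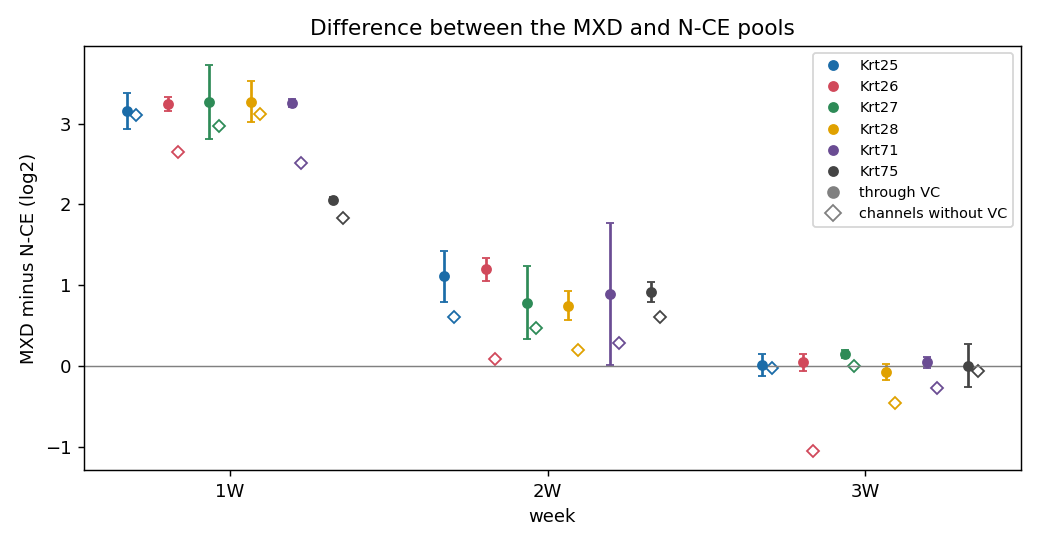
Difference between MXD and N-CE for each keratin (y axis, log2) at 1W, 2W and 3W (x axis). Filled circles are differences of the folds against VC, with bars for the root of the summed squared SDs of both dye swaps (for Krt26 at 2W, the SD of N-CE with that of MXD including the marked spot), and open diamonds are differences of channel levels without VC, with the marked spot included. All symbols lie at 1.83 or above at 1W, and at 2W the diamonds lie below the circles.

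With the 3 weeks standing in for replicates, limma's moderated test called 0 of 24951 probes (0%) in MXD, 0 (0%) in N-CE and 0 (0%) in MXD against N-CE at an adjusted p under 0.05, where 2609, 449 and 1796 probes had an unadjusted p under 0.05. In MXD the mean log2 folds of the 6 keratins over the weeks were 0.49 (Krt27) to 0.66 (Krt25), with limma adjusted p between 0.479 and 0.54, and without 2W they were 0.098 (Krt26) to 0.27 (Krt25). In N-CE they were −0.93 (Krt26) to −0.49 (Krt75), with limma adjusted p of 0.9999 for all 6, and without 1W the mean was above 0 for each of them, at 0.04 to 0.21. The difference between both treatments within weeks was 0.99 ± 0.36 (Krt75) to 1.49 ± 0.55 (Krt26) as mean and SE, with limma adjusted p of 0.672 for all 6. Krt26 at MXD 2W entered these fits from 1 array. A fit on 1W and 2W alone left out 3W, the week with a median difference of 0.03 for the keratins. In this fit limma called 1104 of 24951 probes in MXD against N-CE, among them 4 of the 6 keratins (Krt25, Krt26, Krt71 and Krt75). Their limma adjusted p lay between 0.0428 and 0.0496, with mean differences of 1.49 to 2.22. Without 1W, the mean differences were 0.34 (Krt28) to 0.62 (Krt26), with a limma adjusted p of 0.9997 for all 6.

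A list of 14 genes for matrix proteins, enzymes and junctions linked to the inner root sheath was described next. It also held S100a3 of the hair cuticle, Calm5 and Dsg1c of the epidermis and the regulator Gata3. Its counts are therefore not those of the sheath alone. In N-CE at 1W, 6 of the 13 above background were down-regulated and 0 up-regulated, with a median of −0.33 ± 0.19. Tchh (trichohyalin, the matrix protein between the sheath filaments) had a log2 fold of −3.06 on each array. Padi3 and Padi1, which convert arginines of trichohyalin to citrulline, had −2.79 ± 0.10 and −2.10 ± 0.15. Dsg4, a desmosomal cadherin of the inner follicle, had −2.85 ± 0.79 (above background in N-CE on 1 of 2 arrays), Crym −2.67 ± 0.31 and S100a3, a calcium-binding protein of the hair cuticle, −2.35 ± 0.37. The other 7 were not called. Their log2 folds lay between −0.33 and 0.38. In MXD at 2W, 9 of 14 were up-regulated, from 1.20 (Tchh and Tgm3) to 1.91 ± 0.12 (Dsg4), Padi1, Padi3, Crym, S100a3, Tchhl1, Dsc2 and the transglutaminase Tgm3 among them. Calm5 and Dsg1c, both of the differentiated epidermis, were down-regulated there with −1.54 ± 0.13 and −1.09 ± 0.01. At MXD 1W S100a3 alone was called (0.64 ± 0.08), and in the other 3 comparisons 0 were called.

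Of 14 regulators of follicle differentiation, 8 were down-regulated in N-CE at 1W and 9 up-regulated in MXD at 2W, with medians of −0.76 ± 0.09 and 1.03 ± 0.15. Shh, the signal of the hair matrix, was not well above background in N-CE at 1W on either array, so that a bound alone can be given there. It was at least 1.80-fold lower, from the channel levels, with the N-CE side on each array set to its own level or to the lowest level of a probe well above background, whichever was higher. In MXD at 2W Shh had 1.20 ± 0.01. Msx2 had −2.15 ± 0.19 and 1.20 ± 0.04 in these 2 comparisons, and Lef1, the transcription factor of the Wnt pathway, −1.93 ± 0.02 and 1.47 ± 0.08. Hoxc13 (−1.51 ± 0.15, above background in N-CE on 1 of 2 arrays, and 1.10 ± 0.27), Dlx3 (−1.33 ± 0.22 and 1.36 ± 0.45), Foxn1 and Vdr were called in both, Cux1 was called in N-CE at 1W and Notch1 and Ovol1 in MXD at 2W. Gata3, the regulator known for the fate of the inner root sheath, was singled out after its values were seen. It had −0.09 ± 0.03 in N-CE at 1W and 0.40 ± 0.16 in MXD at 2W and was called in neither. In the other 4 comparisons, 0 of 14 were called.

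Keratins listed as those of the hair shaft, which the sheath encloses, were set beside the sheath keratins. Of 12 with a probe, 11 were down-regulated in N-CE at 1W with a median of −2.30 ± 0.20, and 12 were up-regulated in MXD at 2W with a median of 1.34 ± 0.33. At N-CE 1W they ranged from −2.81 ± 0.19 (Krt33a) to 0.05 ± 0.05 (Krt84), and Krt84 was the one not called. At MXD 1W, 4 of 12 were called up-regulated (Krt33a, Krt33b, Krt34 and Krt86), where 0 of the 6 sheath and companion layer keratins were, and the medians were 0.61 ± 0.12 and 0.44 ± 0.03. Keratins of the outer root sheath and the epidermis gave other values. In N-CE at 1W Krt2 of the upper epidermis was up-regulated (0.71 ± 0.11) and 0 of 8 were called downwards. In MXD at 2W Krt2 (−1.94 ± 0.30), Krt10 (−1.43 ± 0.39) and Krt1 (−1.30 ± 0.93) were down-regulated, and in N-CE at 2W Krt2 was down-regulated too (−1.34). Of 7 desmosome partners of keratinocytes, 0 were called in any of the 6 comparisons.

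**Figure D4:**
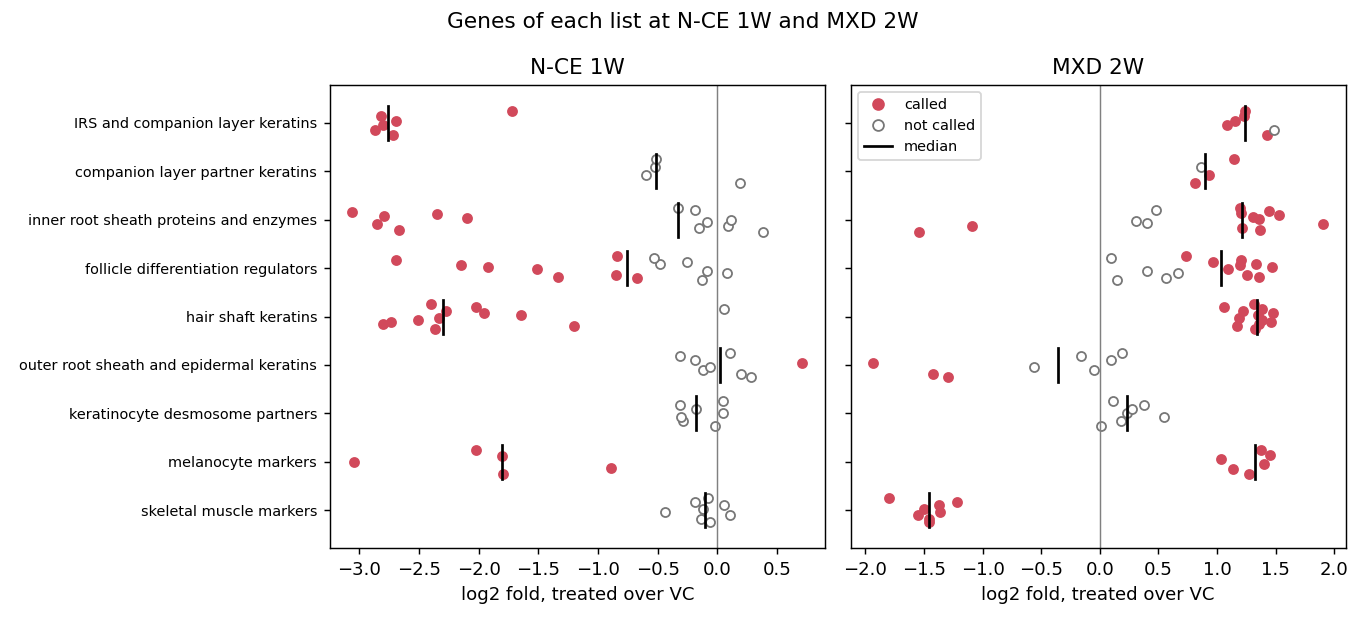
Log2 fold of treated skin over VC (x axis) of each gene of 9 lists (y axis) in N-CE at 1W and MXD at 2W. Filled points were called, open points were not, and black lines are medians. Shh at N-CE 1W and Tyr at MXD 2W, not above background in one of their groups, are drawn at the measured ratio. The keratins of the inner root sheath and companion layer, the hair shaft keratins and the melanocyte markers lie on the left at N-CE 1W, apart from Krt84, and on the right at MXD 2W, while the skeletal muscle markers lie on the left at MXD 2W.

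Markers of other cells of the skin moved in some of these comparisons. Of the melanocyte markers, 5 of 5 above background were down-regulated in N-CE at 1W (median −1.81 ± 0.17), where Tyr was not above background. In MXD 4 of 5 were up-regulated at 1W, 6 of 6 at 2W (median 1.32 ± 0.21) and 5 of 6 at 3W. Tyr was not above background in VC at 2W, so that its call in MXD there rests on the measured ratio. Its bound, at least 1.29-fold, is under the fold of 1.5 needed for a call. With Tyr at this bound, the MXD median of that week was 1.20. In N-CE the melanocyte markers lay above VC for 6 of 6 at 2W (median 0.54 ± 0.19, Oca2 called up-regulated) and for 6 of 6 at 3W (median 0.55 ± 0.13, Mlana called up-regulated). At N-CE 2W Tyr was not above background in VC, and in N-CE it was so on 1 array. With Tyr at its bound there, at least 1.09-fold, the median stayed at 0.54. The log2 of their summed signal was 12.45 to 12.50 in N-CE at 1W and 14.10 to 14.22 in its VC. Of 8 skeletal muscle markers, 6 were down-regulated at MXD 1W, 8 at MXD 2W (median −1.46 ± 0.50) and 2 at MXD 3W. The log2 of their summed signal at 2W was 17.23 to 18.13 in MXD and 18.98 to 19.27 in VC. At MXD 2W, 4 of 6 adipocyte, 3 of 6 leukocyte, 3 of 6 fibroblast and 1 of 4 endothelial markers were down-regulated as well. By the same criterion 8.36% of all probes were down-regulated in that comparison. At N-CE 1W, 0 markers of skeletal muscle, adipocytes, leukocytes, fibroblasts and endothelium were called, and their medians lay between −0.10 and 0.31. At N-CE 2W, Myh1 of skeletal muscle and Lep of adipocytes were down-regulated. The part of these shifts in the keratin values was not tested.

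The 6 keratins ran together over the 12 arrays. The log2 folds of each correlated with the mean of the other 5 at Pearson r of 0.980 (Krt75) to 0.996 (Krt26). The points are not independent, since arrays come in dye swaps and share VC pools, and the N-CE 1W arrays span most of their range. By the same measure, the 10 genes most like the mean of the keratins among 21721 probes were Ctse, Msx2, Gjb2, Cryba4, Capn8, A030014E15Rik, Pinlyp, Krtap28-13, A030003K21Rik and Krtap17-1, with r of 0.994 to 0.998. Ctse (cathepsin E, an aspartic protease) had log2 folds of −2.52 in N-CE at 1W and 1.25 in MXD at 2W. Gjb2, a gap junction connexin, had −2.35 and 1.28. Krtap17-1 and Krtap28-13 encode keratin-associated proteins of the hair.

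Since the genes moved together, the sequences before their starts are shown, as RefSeq gives them on GRCm38.p6. Of the 9 genes, 8 had an entry and Krt74 had none. The 250 bases before the start were searched on both strands for the word of the TATA box (TATAAA), for those of LEF1 and TCF (CTTTGA, with CTTTGT as its variant), for that of GATA factors (AGATAA) and for that of AP-1 (TGANTCA). The word TATAAA was found in 7 of 8, against 12.4% of 32851 promoters. On the strand of the gene and within the last 60 bases before the start, a window chosen after seeing the data, it was found in 6 of 8, against 2.87%. Its first base stood 30 bases before the start in Krt25, Krt26, Krt28 and Krt73, 40 bases in Krt71 and 15 in Krt27. AGATAA was found in 4 of 8 (Krt25, Krt27, Krt71 and Krt73) against 9.99%, CTTTGA in 1 (Krt28) against 13.8%, CTTTGT in 1 (Krt25) against 16.5% and TGANTCA in 0 against 6.75%. The window of Krt75 held none of these words. The last 120 bases before the start, all on the minus strand and written 5′ to 3′ with motif letters in capitals, read for the 6 measured genes:
Krt25, chr11:99322952-99323071: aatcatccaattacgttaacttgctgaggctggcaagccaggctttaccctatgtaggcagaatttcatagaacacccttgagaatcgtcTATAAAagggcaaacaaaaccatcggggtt
Krt26, chr11:99337966-99338085: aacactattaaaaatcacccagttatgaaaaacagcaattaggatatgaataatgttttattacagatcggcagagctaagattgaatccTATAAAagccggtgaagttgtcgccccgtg
Krt27, chr11:99351119-99351238: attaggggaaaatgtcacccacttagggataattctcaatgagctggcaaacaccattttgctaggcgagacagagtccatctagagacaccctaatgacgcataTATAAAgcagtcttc
Krt28, chr11:99374904-99375023: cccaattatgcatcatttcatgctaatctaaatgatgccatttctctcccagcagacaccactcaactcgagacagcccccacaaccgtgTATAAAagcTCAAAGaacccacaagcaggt
Krt71, chr15:101743098-101743217: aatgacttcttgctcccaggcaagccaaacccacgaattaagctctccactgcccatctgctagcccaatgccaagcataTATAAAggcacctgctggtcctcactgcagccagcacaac
Krt75, chr15:101573905-101574024: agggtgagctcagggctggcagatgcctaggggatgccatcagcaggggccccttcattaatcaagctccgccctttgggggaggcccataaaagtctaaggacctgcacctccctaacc
The genes of 1 cluster share base composition and descent, so these matches are a description of the windows and were not tested.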

How the data were processed

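RNA of whole back skin was measured on 12 2-colour arrays, and groups were taken from the GEO labels. The deposited log10 ratio of Cy5 over Cy3 and the deposited p-value of each spot come from Agilent Feature Extraction, version 12.0.3.1 per the file headers and 11.0.1.1 per the labels, after background subtraction and LOWESS dye normalization by the authors. The deposited intensity of each channel was used for signals and levels. The series matrix deposited by the authors holds log10 ratios of the same arrays and served as an alternative.

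Log ratios were turned to log2 of treated over VC, control and outlier spots were left out, and spots of a probe and arrays of a dye swap were averaged. Probes well above background in at least 1 channel were tested. With 1 pool per group, no test across mice was possible. A gene of the lists was represented by its brightest probe and named when called or among the 2 largest changes of its list. Channel levels were taken after normexp (offset 50), loess and Aquantile normalization. Python 3.11.15, pandas 2.3.3, R 4.3.3 and limma 3.58.1 were used, with Benjamini-Hochberg adjustment over all probes, and the steps were tested on simulated data. The genes and lists were chosen with earlier results of these data known. The number of arrays limits the precision. Alternatives covered the P and fold criteria, normexp and loess, each array alone, the filter on dim probes, outlier spots, the matrix values, centring, each week left out and the slide as a random block.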

Additional observations from a re-analysis of the deposited data

Results flagged for a closer look

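In the values below, both arrays of a week lay on one side of VC and both arrays of another week of the same treatment on the other side. The differences between weeks are log2 values, they were not tested, and the 2 arrays of a week hold the same pool. In N-CE, the step from 1W to 2W was 3.03 for Krt25, 3.16 for Krt26, 3.10 for Krt27, 3.10 for Krt28 and 2.04 for Krt75, and for Krt25 the step from 1W to 3W was 2.83. Krt71 was not among them, because its arrays at N-CE 2W lay on both sides of VC. Smaller steps downwards were seen in N-CE from 2W to 3W, −0.52 for Krt26 and −0.54 for Krt27. In MXD, 3W minus 1W was −0.56 for Krt26, −0.55 for Krt27 and −0.66 for Krt28. There 3W minus 2W was −1.17 for Krt27 and −1.24 for Krt28. Krt26 could not enter this last step, because it had 1 unmarked array at MXD 2W. With the marked spot, its arrays had log2 folds of 1.49 and 1.30 at 2W, against −0.22 and −0.14 at 3W.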

How the results depend on the processing

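Values were recomputed under the alternatives where these could change them. The filter on dim probes could not alter the counts or medians of the keratins, since all their readings were above background. Counts with normexp and loess kept the P of the scanner software. The 6 down-regulated keratins of N-CE 1W and the 5 up-regulated ones of MXD 2W kept their count within 1.5 times under every alternative run, and 6 were called at MXD 2W with outlier spots kept. The array with the treated pool in Cy3 alone called 1 keratin up-regulated at MXD 1W, and that with it in Cy5 alone called 1 at N-CE 2W. The median at MXD 1W was 0.47 with normexp and loess and 0.41 on the array with MXD in Cy3, and that at MXD 3W was −0.046 on the array with MXD in Cy5. At N-CE 2W the median of 0.32 was 0.20 on the array with N-CE in Cy3, and at N-CE 3W that of −0.06 was 0.024 on the array with N-CE in Cy5. Without VC, an alternative chosen after seeing the data, MXD exceeded N-CE by a median of 2.81 at 1W and 0.38 at 2W, and lay at −0.17 from it at 3W, with or without outlier spots. By limma, leaving out each week in turn called 0 probes in MXD and in N-CE, and 0 to 1104 in MXD against N-CE, the 1104 without 3W. With 12 arrays and the slide as a random block it called 737 of 24649 probes in MXD and 1 in MXD against N-CE. That fit treats the arrays of a dye swap as samples and drops Krt26. None of the keratins in it was called. Their limma adjusted p was 0.3102 (Krt75) to 0.4917 (Krt27) in MXD and 0.2865 to 0.2954 in MXD against N-CE. Leaving out a week moved the mean of N-CE over the weeks between −1.31 and 0.21 (Krt25), −1.54 and 0.036 (Krt26), −1.52 and 0.035 (Krt27), −1.35 and 0.20 (Krt28), −1.42 and 0.15 (Krt71) and −0.90 and 0.12 (Krt75), above 0 without 1W. Of the recomputed log2 folds of single keratins, 210 moved by less than the SD of their dye swap and 5 by more. For each array alone this was fixed in advance, since both arrays of a swap lie within 1 SD of their mean. The matrix values and most values with outlier spots kept equalled the main ones, so the 210 do not measure robustness. Among the 5 was Krt26 at N-CE 1W, with −2.27 after normexp and loess against −2.87. The cause of these shifts was not tested. Each result rests on 1 probe per gene and 1 pool per group.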
